A study of Homo sapiens with 12 samples.

Results

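GAS6, PROS1, AXL, TYRO3 and MERTK, the genes of 2 ligands and 3 receptors of 1 signalling system, were followed in 12 RNA sequencing libraries. They were found by their symbols in the gene column, and all 5 were present among 27788 counted symbols. The set was selected on the GAS6 values of knockout against wild-type U-87 MG cells, where GAS6 was nearly lost. The 3 receptors, named TAM after TYRO3, AXL and MERTK, are receptor tyrosine kinases. Their ligands, GAS6 (growth arrest-specific protein 6) and protein S (PROS1), carry an amino-terminal Gla domain whose glutamates are carboxylated with the help of vitamin K and which binds phosphatidylserine on dying cells. The ligand thereby bridges a dying cell and the receptor-bearing cell, and TAM signalling is known for the clearance of dying cells and, in tumours, for survival and invasion. AXL binds GAS6 and not protein S, while TYRO3 and MERTK respond to both.

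The libraries came from 2 human cancer cell lines, HCT116 of a colorectal carcinoma and U-87 MG of a glioblastoma, with 3 libraries of GSTO1 knockout (KO) cells and 3 of cells labelled wild type (WT) in each. Cells carried Cas9 from a lentivirus driven by the hEF1α promoter, had been selected with blasticidin, and were given a crRNA against exon 2 of GSTO1, after which single colonies were picked. The labels do not give how many colonies the KO libraries stand for, nor whether WT cells carried Cas9 or the non-targeting crRNA, so an effect of the mutation and a trait of the picked colony cannot be told apart. Nor do they say that a group's libraries were grown as separate cultures, so p-values measure only how these libraries vary, and that variation may be technical. In bulk RNA, fewer expressing cells and less RNA per cell cannot be told apart. HCT116 libraries were read as single ends and U-87 MG libraries as pairs, of 50 bp each.

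Libraries held 17814142 to 28097179 counts. GSTO1 was at 24.9% of its WT level in HCT116 KO cells and at 18.4% in U-87 MG KO cells. Of 8 epithelial markers, 7 exceeded a mean of 0.5 FPKM in HCT116 and 2 in U-87 MG. Of 8 mesenchymal markers, 5 exceeded it in HCT116, where CD44 had 170 FPKM in KO and 99.8 FPKM in WT cells, and 8 in U-87 MG. Of 8 glial markers, NES alone exceeded it in each line, with 4.48 FPKM in KO and 6.32 FPKM in WT cells of HCT116. GFAP was at 0.0162 FPKM in KO and 0.0164 FPKM in WT cells of U-87 MG. Of 8 leukocyte markers CD68 and CSF1R exceeded it in U-87 MG. CD68 had 304 FPKM in KO and 193 FPKM in WT cells there, and CSF1R 2.64 FPKM in KO and 4.42 FPKM in WT cells. Another gene on the same strand overlaps 81.6% of CD68 exon bases. PTPRC, which marks leukocytes, was at 0.0563 FPKM in KO and 0.0433 FPKM in WT cells of U-87 MG. In HCT116 CD68 alone exceeded a mean of 0.5 FPKM, with 4.28 FPKM in KO and 5.97 FPKM in WT cells. Levels per gene length are given as FPKM (fragments per gene length and sequencing depth, made by the authors), and fold changes are on the log2 scale from edgeR on counts. A gene was called where its adjusted p was under 0.05, its fold above 1.5 and its mean FPKM above 0.5, and the words rose and fell are kept for genes that passed the test.

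GAS6 lies on the minus strand of chromosome 13 (GRCh38, chr13:113820549-113864076), PROS1 on the minus strand of chromosome 3 (chr3:93873051-93980003) and AXL on the plus strand of chromosome 19 (chr19:41219223-41261766). TYRO3 (chr15:41557675-41583589) and MERTK (chr2:111898607-112029561) are on plus strands. These spans are from GENCODE release 44. The 250 bases before the RefSeq start of GAS6, the member nearly absent from 1 group, and of PROS1 and AXL, whose levels differed between KO and WT cells in the same direction in both lines, are shown from RefSeq (GRCh38.p14) with CG dinucleotides in capitals. The RefSeq start of PROS1 lies inside its GENCODE span, downstream of the GENCODE start, and of the RefSeq starts of AXL the one farthest upstream is shown.
GAS6, chr13:113864077-113864326, minus strand: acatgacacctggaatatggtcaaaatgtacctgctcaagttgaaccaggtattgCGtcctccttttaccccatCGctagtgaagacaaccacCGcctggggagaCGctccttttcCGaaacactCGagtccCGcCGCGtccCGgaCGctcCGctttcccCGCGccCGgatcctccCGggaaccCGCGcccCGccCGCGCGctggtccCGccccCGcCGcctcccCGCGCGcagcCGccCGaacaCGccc
PROS1, chr3:93973897-93974146, minus strand: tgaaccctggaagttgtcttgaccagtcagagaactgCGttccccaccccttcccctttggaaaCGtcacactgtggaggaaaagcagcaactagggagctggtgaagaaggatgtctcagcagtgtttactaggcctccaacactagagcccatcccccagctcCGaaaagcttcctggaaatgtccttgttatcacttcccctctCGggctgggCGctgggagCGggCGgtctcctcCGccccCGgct
AXL, chr19:41218973-41219222, plus strand: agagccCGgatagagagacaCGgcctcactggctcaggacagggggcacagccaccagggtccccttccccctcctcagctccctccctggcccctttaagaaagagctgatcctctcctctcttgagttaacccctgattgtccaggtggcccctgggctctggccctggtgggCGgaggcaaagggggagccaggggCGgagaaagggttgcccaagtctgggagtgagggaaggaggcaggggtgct
The GAS6 window held 31 CG dinucleotides, a number reached by 10.9% of 35116 RefSeq promoter windows. The PROS1 window held 9 and the AXL window farthest upstream 4, beside a median of 11 over all windows, and the other AXL window (chr19:41226505-41226754) held 13. The TYRO3 window farthest upstream held 39 and the MERTK window 25. The letters GGGCGG (a GC box), searched on both strands, were found 3 times in the GAS6 window, 2 times each in the PROS1 and AXL windows shown and 0 times in the other AXL window, and 42.6% of all windows held them. TATAAA was in none of these windows and in 10.7% of all windows. DNA methylation was not measured, and a match of letters is not a bound site.

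In U-87 MG, GAS6 transcripts were close to absent from KO cells. GAS6 had 0.0397, 0.0711 and 0.0671 FPKM in the KO libraries, against 10.5, 10.8 and 11.2 FPKM in the WT libraries. All 3 KO libraries were low and all 3 WT libraries high, with a wide gap between them. These levels came from 3, 4 and 4 counts in KO libraries and 690, 842 and 658 counts in WT libraries. Scaled to library totals, the KO level was 0.524% of the WT level, with an exact 95% interval of 0.261% to 0.94% that covers counting error only. The edgeR log2 fold change was -7.57 (SE 0.39). This value chose the genes, so it carries no test.

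In HCT116, GAS6 in KO and WT cells did not differ beyond the spread of the libraries. It had 16.0, 14.3 and 16.4 FPKM in KO libraries, against 16.0, 15.7 and 17.4 FPKM in WT libraries. The groups overlapped. The log2 fold change was -0.02 (SE 0.06, edgeR adjusted p = 0.855), and its sign changed when library totals alone were used for scaling or when KO library 2 or WT library 3 was left out. From low to high, GAS6 stood at 0.0593 ± 0.0171 FPKM in U-87 MG KO, 10.8 ± 0.346 FPKM in U-87 MG WT, 15.5 ± 1.13 FPKM in HCT116 KO and 16.4 ± 0.921 FPKM in HCT116 WT cells (SD, n = 3 each). The HCT116 groups, neighbours in that order, did not differ beyond their spread.

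PROS1, the other ligand, was higher in KO cells of both lines. In HCT116 it had 5.82, 5.13 and 4.35 FPKM in KO libraries, against 2.94, 2.85 and 2.83 FPKM in WT libraries. Every KO library was above every WT library, and the KO libraries were the more spread. PROS1 rose in HCT116, with a log2 fold change of 0.88 (SE 0.1, edgeR adjusted p = 3.76e-07). U-87 MG libraries had more of it, with 33.8, 31.9 and 32.6 FPKM in KO libraries, against 21.0, 20.8 and 19.0 FPKM in WT libraries. There too the groups did not overlap, and the log2 fold change, given as a description, was 0.67 (SE 0.05). From high to low, its levels ran U-87 MG KO, U-87 MG WT, HCT116 KO and HCT116 WT, and no neighbours in that order overlapped. Of 5547 stretches of 50 bases in PROS1 transcripts, 6.42% also occur in the pseudogene PROS2P, which was not analysed here.

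**Figure D1:**
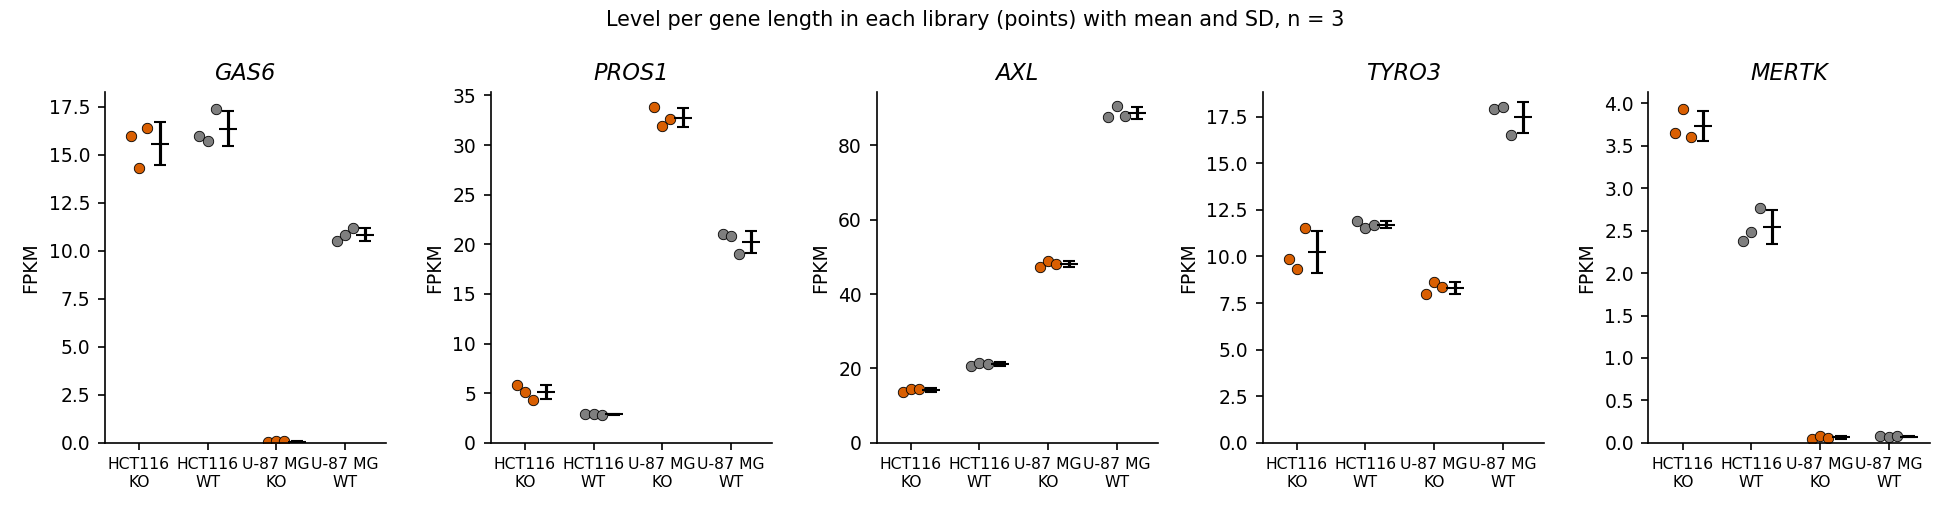
FPKM of the 5 genes in each library (points, 3 per group) with group means and SD, on linear axes that start at 0 and have a scale of their own for each gene, KO left of WT within each line. GAS6 in U-87 MG KO lies at 0.0593 FPKM on average, against 10.8 FPKM in U-87 MG WT, while MERTK is low in both U-87 MG groups.

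The makeup of the ligand transcripts differed between KO and WT cells more than their sum did. In U-87 MG, PROS1 made up 99.8% ± 0.0566 of the summed ligand FPKM in KO cells and 65.2% ± 1.94 in WT cells (SD, n = 3 each). The sum was 32.8 ± 0.967 FPKM in KO and 31.1 ± 0.775 FPKM in WT cells. In HCT116, PROS1 made up 24.7% ± 3.21 in KO and 15.0% ± 0.852 in WT cells, where the sum was 20.6 ± 1.22 FPKM in KO and 19.2 ± 0.894 FPKM in WT cells. These shares restate the levels above and carry no test of their own.

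AXL, the receptor that binds GAS6 and not protein S, was the most abundant TAM receptor in all 4 groups. Its level was lower in KO cells of both lines. In U-87 MG it had 47.2, 49.0 and 48.0 FPKM in KO libraries, against 87.7, 90.5 and 88.0 FPKM in WT libraries. The KO libraries lay close together and far below the WT libraries, and the log2 fold change, as a description, was -0.9 (SE 0.04). In HCT116 AXL had 13.6, 14.5 and 14.5 FPKM in KO libraries, against 20.6, 21.5 and 21.3 FPKM in WT libraries. The groups did not overlap, and AXL fell by 0.52 on the log2 scale (SE 0.05, edgeR adjusted p = 1.36e-08), a fold that is under the 1.5 required for a call. From low to high, AXL levels ran HCT116 KO, HCT116 WT, U-87 MG KO and U-87 MG WT, with no overlap between neighbours.

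TYRO3 was lower in U-87 MG KO cells. It had 7.96, 8.61 and 8.36 FPKM in KO libraries, against 17.9, 18.0 and 16.5 FPKM in WT libraries of U-87 MG. The KO libraries were all below the WT libraries, with a log2 fold change of -1.1 (SE 0.06), as a description. In HCT116 TYRO3 had 9.86, 9.32 and 11.5 FPKM in KO libraries, against 11.9, 11.5 and 11.7 FPKM in WT libraries. KO library 3 reached the WT level, the groups overlapped, and the log2 fold change of -0.15 (SE 0.07) did not pass the test (edgeR adjusted p = 0.0595). That outcome changed without KO library 3, where the value was -0.24 (edgeR adjusted p = 0.000384), still under the fold for a call. With all libraries kept it also changed with a replicate block (edgeR adjusted p = 0.00158) and with no filter on low counts (edgeR adjusted p = 0.0211). From low to high, TYRO3 levels ran U-87 MG KO, HCT116 KO, HCT116 WT and U-87 MG WT, and the HCT116 groups were the neighbours that overlapped. Of its stretches of 50 bases, 4.37% occur elsewhere on the same strand, most often in the pseudogene TYRO3P, which had 0 to 4 counts per library.

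MERTK, best known as the receptor by which macrophages and retinal pigment epithelium take up dying cells and shed membrane, was expressed in HCT116 and near 0 in U-87 MG. In HCT116 it had 3.65, 3.94 and 3.61 FPKM in KO libraries, against 2.38, 2.49 and 2.77 FPKM in WT libraries. All KO libraries were above all WT libraries. MERTK rose, with a log2 fold change of 0.65 (SE 0.09, edgeR adjusted p = 2.46e-06). Its fold was just above 1.5, and with limma on log2(FPKM + 1) it was under it, at 0.42. In U-87 MG MERTK had 5, 7 and 7 counts in KO libraries and 7, 9 and 7 counts in WT libraries. At that depth the filter on low counts left it out of the test, and the summed counts of KO cells were 86.3% of those of WT cells after scaling, with an exact 95% interval of 44.4% to 166%.

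In HCT116 2 of the 5 genes were called, PROS1 and MERTK, both higher, where 11.9% of the 14068 genes in the test met the rule, 7.82% as higher and 4.07% as lower. With AXL, 3 of the 5 passed the adjusted p alone, as did 57.3% of all genes. The groups did not overlap for PROS1, AXL and MERTK, as was so for 61.5% of all tested genes there. In U-87 MG all 4 tested members met the call rule, 1 higher and 3 lower, where 16.2% of 13741 genes did, 8.06% as higher and 8.15% as lower. In U-87 MG 64.0% of genes had groups that did not overlap, as did these 4. Nothing is read from these counts, since the comparison chose the genes. MERTK was the member that did not enter the test.

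**Figure D2:**
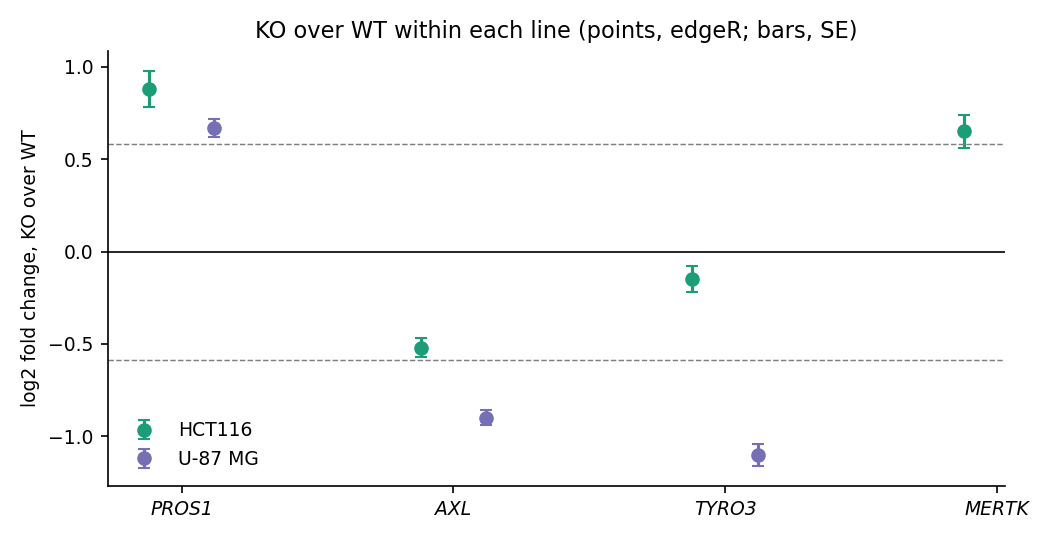
Log2 fold change, KO over WT, with SE from edgeR for PROS1, AXL, TYRO3 and MERTK in each line, with dashed lines at a fold of 1.5. GAS6 in U-87 MG, at -7.57, is off this scale and is left out, and MERTK was not tested in U-87 MG. PROS1 lies above 0 and AXL below 0 in both lines.

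Summed over the 3 receptors, U-87 MG had 56.4 ± 1.25 FPKM in KO and 106 ± 1.98 FPKM in WT cells, and HCT116 had 28.2 ± 1.3 FPKM in KO and 35.4 ± 0.482 FPKM in WT cells (SD, n = 3 each). AXL held 85.2% ± 0.294 of that sum in U-87 MG KO and 83.5% ± 0.565 in U-87 MG WT cells, so its share moved little where AXL and TYRO3 were both lower. In HCT116 AXL held 50.4% ± 1.66 in KO and 59.7% ± 0.729 in WT cells, and MERTK held 13.3% ± 1.02 in KO and 7.19% ± 0.476 in WT cells. Among 58 receptor tyrosine kinases AXL ranked 2 by mean FPKM in both U-87 MG groups, after MET, the receptor of hepatocyte growth factor. AXL ranked 9 in HCT116 KO and 6 in HCT116 WT cells. TYRO3 ranked 10 in U-87 MG KO, 8 in U-87 MG WT, 13 in HCT116 KO and 12 in HCT116 WT cells.

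**Figure D3:**
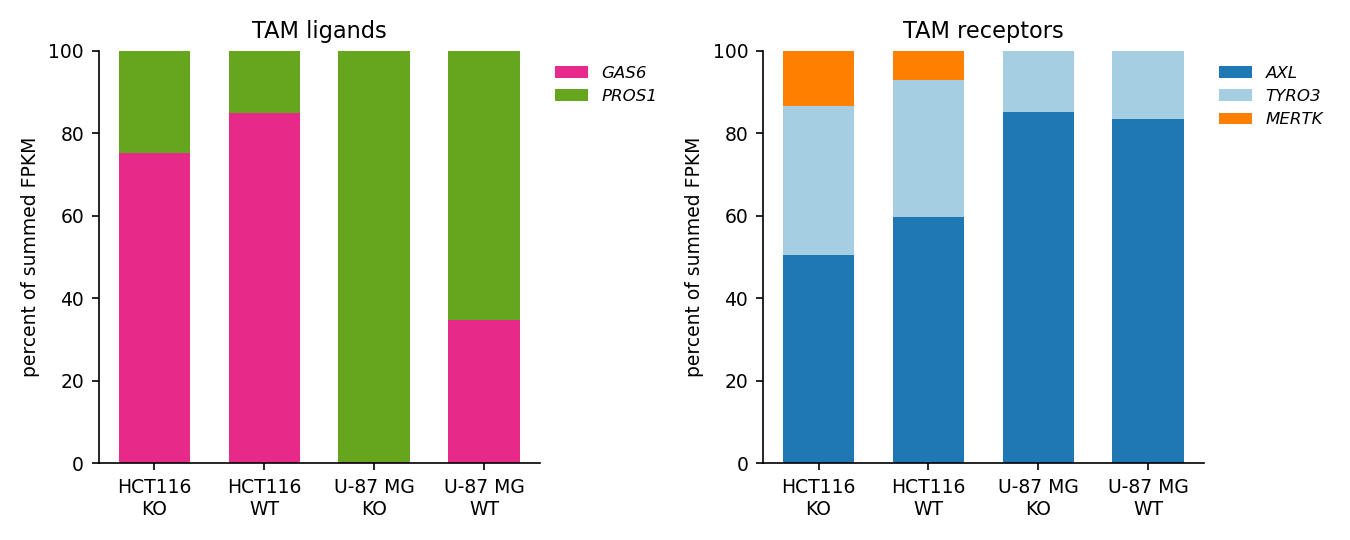
Share of summed FPKM held by each ligand and by each receptor, as means of 3 libraries per group with KO left of WT in each line. PROS1 holds 99.8% of ligand FPKM in U-87 MG KO, against 65.2% in U-87 MG WT.

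Between the WT lines, the ligand and receptor genes differed in both directions. PROS1 was higher in U-87 MG WT than in HCT116 WT, with a log2 difference of 2.9 (SE 0.08, edgeR adjusted p = 6.61e-26). AXL was higher by 2.17 (SE 0.04, edgeR adjusted p = 1.2e-29) and TYRO3 by 0.68 (SE 0.06, edgeR adjusted p = 9.82e-12). MERTK was lower in U-87 MG WT, with a log2 difference of -4.95 (SE 0.29), given as a description. It entered that fit only through HCT116, and had 2.55 FPKM in HCT116 WT and 0.0735 FPKM in U-87 MG WT cells. GAS6 differed by -0.5 (SE 0.07), given without a test since its U-87 MG WT libraries entered the choice. Of the 5 genes 3 met the call rule as higher, PROS1, AXL and TYRO3, where 51.2% of 15613 genes met it, 26.3% as higher and 24.9% as lower. MERTK met it as lower through its HCT116 level, and no call is read from it. Line and read layout cannot be told apart, and scaling by library totals alone shifted the median of all genes by -0.19.

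Transcripts on the other strand at the GAS6 locus were counted too. GAS6-AS2, listed by RefSeq and GENCODE as GAS6-DT, runs away from GAS6, and its RefSeq start lies 101 bases upstream of the GAS6 start, inside the GAS6 window shown above. In U-87 MG it had 0 counts in all 3 KO libraries, against 44, 86 and 51 counts in WT libraries, so it was at least 57.8-fold lower with 3 counts over the group as the floor. In HCT116 GAS6-AS2 had 30, 49 and 42 counts in KO libraries, against 23, 34 and 37 counts in WT libraries, a log2 fold change of 0.59 (SE 0.26) that did not pass the test (edgeR adjusted p = 0.0534). GAS6-AS1 lies antisense over 7.0% of GAS6 exon bases. It had 13.8, 12.7 and 14.0 CPM (counts scaled to library totals) in HCT116 KO libraries, against 4.09, 4.51 and 3.7 CPM in HCT116 WT libraries. There it rose by 1.69 on the log2 scale (SE 0.11, edgeR adjusted p = 1.19e-10) while GAS6 did not pass the test, and with no FPKM value it could not be called. In U-87 MG GAS6-AS1 had 14, 18 and 7 counts in KO libraries, against 22, 27 and 24 counts in WT libraries. The labels do not give the strand setting of the counting, so reads of GAS6 and GAS6-AS1 in their overlap may not have been told apart.

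Genes beside GAS6 on chromosome 13 also differed in U-87 MG. The 17 nearest tested genes were 10 at lower coordinates and all 7 toward the chromosome end. Of these 9 were called, 3 higher and 6 lower, beside 16.2% of all tested genes there, 8.06% higher and 8.15% lower. Of the lower ones, GAS6-AS2 (0 FPKM in KO, 1.15 FPKM in WT cells) and LINC00565 (0.188 and 1.81 FPKM) met the FPKM threshold only through WT cells. GAS6-AS2 also starts inside the GAS6 window, so nothing is read from the count. In HCT116 0 of 16 were called by edgeR or by DESeq2, beside 11.9% of all genes by edgeR. There 12 of the 16 had an unadjusted p under 0.05. The share of all genes at that threshold was not counted, so nothing is read from the 12. At the stricter adjusted p alone 57.3% of all genes passed. RASA3, a GTPase-activating protein for RAS and RAP, lies 113.7 kb from GAS6. It had 3.97, 4.15 and 4.45 FPKM in U-87 MG KO libraries, against 14.7, 15.2 and 15.3 FPKM in WT libraries, and fell by 1.87 on the log2 scale (SE 0.06, edgeR adjusted p = 1.14e-16). LINC00565, 59.0 kb away, had 37 summed counts in KO and 394 in WT cells of U-87 MG. Its log2 fold change there, given as a description, was -3.38 (SE 0.28). In HCT116 LINC00565 was higher in KO cells, with a log2 fold change of 1.79 (SE 0.44, edgeR adjusted p = 0.000775), at a mean FPKM under the threshold. TFDP1, the dimer partner of E2F factors, TMCO3 and DCUN1D2, at 179.1 to 329.6 kb on the other side, fell by 1.18, 0.73 and 1.05 on the log2 scale. Farther out the direction was mixed. UPF3A, a factor of nonsense-mediated decay 417.5 kb away, rose by 1.4 (SE 0.06, edgeR adjusted p = 3.39e-15), CHAMP1 rose by 0.7 and GRTP1 by 1.0, and CDC16, between RASA3 and UPF3A, had a log2 fold change of 0.03 (SE 0.05). LINC01054 had 42, 36 and 53 counts in KO libraries and 0 in every WT library of U-87 MG, at least 45.6-fold higher, but its mean FPKM was under the threshold. TMEM255B, 3.6 kb from GAS6, had -0.38 (SE 0.14) and was not called. Copy number was not measured.

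**Figure D4:**
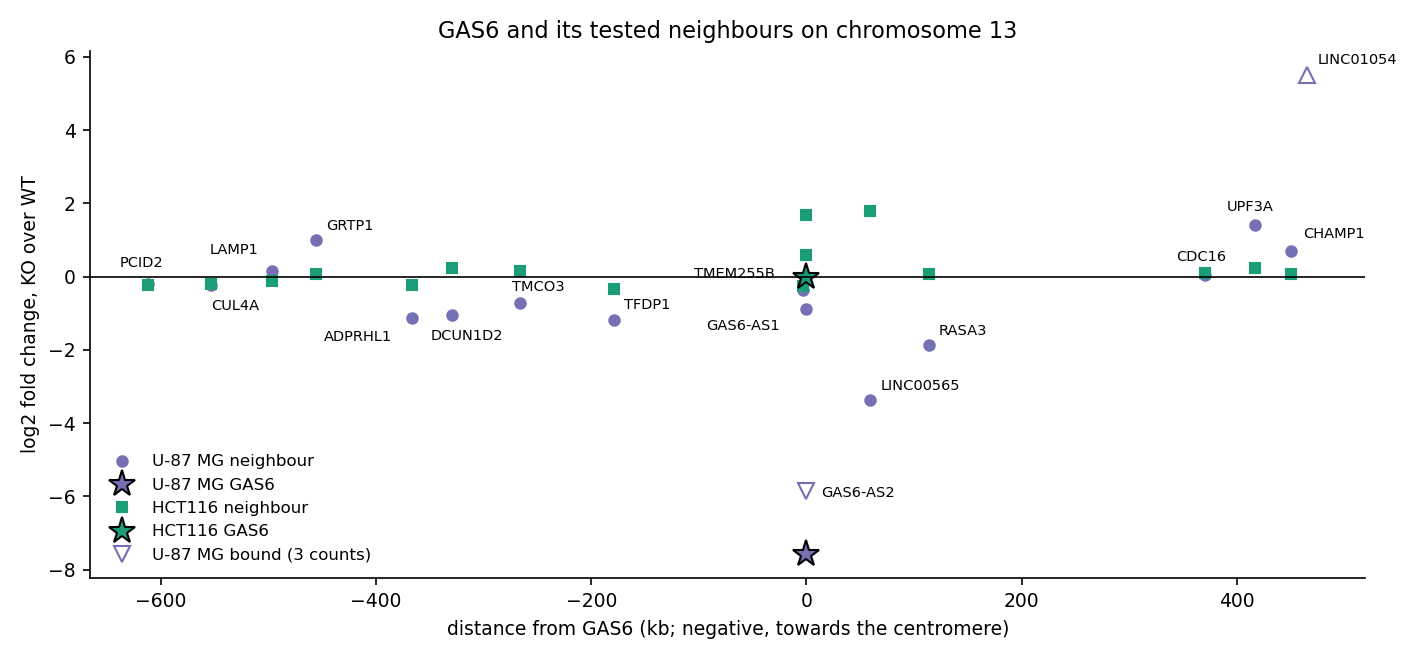
Log2 fold change, KO over WT, of GAS6 (stars) and its nearest tested genes against their distance from GAS6 in kb, for U-87 MG and HCT116. Open triangles mark bounds where 1 group had 0 counts. In U-87 MG GAS6 lies at -7.57, RASA3 at -1.87 and UPF3A at 1.4, while in HCT116 GAS6-AS1 lies at 1.69, LINC00565 at 1.79, GAS6-AS2 at 0.59 and the others between -0.33 and 0.23.

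The wider pathway was read from 10 lists with 95 genes. Of 68 tested in HCT116, 12 met the call rule (17.6%), 10 higher and 2 lower, beside 11.9% of all genes, and the median log2 fold change was 0.14, beside 0.01 over all genes. In U-87 MG 15 of 75 were called (20.0%), 7 higher and 8 lower, beside 16.2% of all genes, with a median of 0.03, beside 0.01. PIK3R1, the regulatory subunit of PI 3-kinase, rose in both lines, by 1.0 in HCT116 (SE 0.07, edgeR adjusted p = 2.36e-10), and U-87 MG gave 0.83 (SE 0.07, edgeR adjusted p = 4.8e-10). It was the single one of 65 list genes tested in both lines that was called higher in both. Of all tested genes 7.82% were called higher in HCT116 and 8.06% in U-87 MG. The share called higher in both was not counted, so nothing is read from that single gene.

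Ligand maturation and other Gla proteins came next to GAS6 and PROS1. Of the 7 genes of the vitamin K cycle, AIFM2, a vitamin K reductase also known as FSP1, rose in U-87 MG by 0.64 (SE 0.08, edgeR adjusted p = 3.49e-07), to 7.6 ± 0.113 FPKM in KO, against 4.89 ± 0.48 FPKM in WT cells. MACROH2A2 lies antisense over 19.2% of its exon bases. Of 13 other Gla proteins, 5 were tested in U-87 MG and 2 rose. Of all genes tested in U-87 MG 8.06% were called higher. MGP (matrix Gla protein) had 6.45 ± 0.384 FPKM in KO and 1.28 ± 0.208 FPKM in WT cells. BGLAP (osteocalcin) had 72.1 ± 3.95 FPKM in KO and 21.6 ± 4.16 FPKM in WT cells, though 40.9% of its exon bases lie in the readthrough gene PMF1-BGLAP. Among other proposed TAM ligands LGALS3 (galectin-3) rose in HCT116 by 0.6 (SE 0.05, edgeR adjusted p = 6.48e-09).

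Other genes that expose or bind phosphatidylserine showed members in both directions. MFGE8, a bridge to integrins, rose in U-87 MG to 51.6 ± 1.9 FPKM in KO, against 17.2 ± 0.487 FPKM in WT cells (log2 1.55, SE 0.05, edgeR adjusted p = 1.11e-16). EDIL3, a related bridge, fell by 0.67 (SE 0.04, edgeR adjusted p = 2.3e-12), and the integrin subunit ITGB3, 33.2% of whose exon bases lie in another gene on the same strand, fell by 0.59 (SE 0.05, edgeR adjusted p = 2.39e-10). ATP8A1, a flippase of aminophospholipids, rose by 1.38 (SE 0.09, edgeR adjusted p = 4.08e-12). In HCT116 LRP1, ADGRB1 (BAI1) and AGER, all receptors of this list, rose by 1.07, 0.73 and 0.6 on the log2 scale. Of the engulfment genes in U-87 MG, the adaptor GULP1 rose by 0.65 and the receptor MEGF10 fell by 1.07. In HCT116 the vitamin K cycle, other Gla protein, phosphatidylserine exposure, engulfment and sheddase lists were those without a called gene. They were pooled for that reason, so nothing is read from 0 of their 27 tested genes being called by edgeR or DESeq2. Over all genes edgeR called 11.9%. Of the 27, 17 had an unadjusted p under 0.05, and the share of all genes at that threshold was not counted. At the stricter adjusted p alone 57.3% of all genes passed. In U-87 MG the lists without a called gene were the other-ligand and sheddase lists, pooled for that reason too. Of their 4 tested genes 0 were called by edgeR or DESeq2, beside 16.2% of all genes by edgeR, and 3 had an unadjusted p under 0.05. Nothing is read from those counts either.

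Downstream of the receptors, SOCS1, an inhibitor of cytokine signalling that TAM receptors induce in mouse dendritic cells, rose in HCT116 to 2.02 ± 0.229 FPKM in KO, against 0.609 ± 0.0543 FPKM in WT cells, by 1.87 on the log2 scale (SE 0.23, edgeR adjusted p = 5.27e-07). Of the regulators of the AXL gene, in HCT116 WWTR1 (TAZ), JUN and MZF1 rose by 0.67, 0.8 and 0.74 and TEAD4 fell by 0.61, while AXL was lower. In U-87 MG SNAI2, TEAD3 and TWIST1 fell by 1.44, 1.32 and 0.7, where AXL was lower too. Other genes overlap 17.2% of MZF1, 9.05% of WWTR1 and 7.06% of TWIST1 exon bases. Their part in the AXL level was not tested. Of the other growth-arrest-specific genes, which share a name and not a function with GAS6, GAS5 rose in HCT116 by 0.68, and GAS2L1 and GAS8 fell in U-87 MG by 0.93 and 0.6, with 25.1% of GAS8 exon bases under an antisense gene.

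The genes most like each member were those with the smallest root mean square difference between log2 profiles over the 12 libraries, which share depth, line and read layout. For GAS6 these were ZDHHC4 at 0.425, FOXRED2 at 0.506, RAB4A at 0.604, RPS6KA2 at 0.641 and ZNF430 at 0.878, beside a median of 3.21 over 15612 genes. ZDHHC4 and RAB4A had mean levels of 0 in U-87 MG KO cells, against 9.51 and 3.43 FPKM in U-87 MG WT cells, so the pattern of near absence was not particular to GAS6 and its locus. FOXRED2 had 0.0164 FPKM in U-87 MG KO and 8.27 FPKM in U-87 MG WT cells. These 5 genes lie on chromosomes 7, 22, 1, 6 and 19. For AXL the closest were KIAA0754, PRMT6 and TRIO, at 0.129 to 0.137, and for PROS1 CD59, SMARCA2 and PDE5A, at 0.142 to 0.154. For TYRO3 the closest were ALG12, SAMM50 and PI4KA, at 0.0791 to 0.0905, all on chromosome 22, and for MERTK TCF7L2, PPP1R9A and LHX5, at 0.172 to 0.196.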

How the data were processed

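RNA of 12 libraries was sequenced, 3 per group. Per the submitters' processing notes, STAR 2.5.2, featureCounts 1.6.1 and Cufflinks 2.2.1 were used with GRCh38. The counts, as deposited, are whole numbers of reads for each gene symbol, and the deposited FPKM values were made by the authors per gene length and depth. Sources used here do not give the strand setting, the treatment of reads with several alignments or the counting of pairs.

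Counts of the 6 libraries of a line were tested with edgeR 4.0.16 (R 4.3.3, quasi-likelihood, robust, TMM, filterByExpr), with Benjamini-Hochberg adjustment over all genes tested. WT lines and the difference between lines came from 1 fit of 4 groups. Calls needed a fold above 1.5, a mean FPKM above 0.5 and an adjusted p under 0.05. DESeq2 1.42.0, limma 3.58.1 on log2(FPKM + 1) and log2(FPKM + 0.1), other scalings, filters, a replicate block and leaving out each library were alternatives. The edgeR script was tested on simulated data. Members and lists were chosen with earlier results of these data known. The named genes were the members, GSTO1, called list genes (up to 4 per list and line with the smallest adjusted p), antisense genes and pseudogenes of members, up to 10 tested neighbours of GAS6 on each side, leading receptor tyrosine kinases, and the genes most like each member. A gene that the rule takes is not reported here. MACROH2A2, PMF1-BGLAP, GFAP, NES, CD44, CD68, CSF1R and PTPRC serve as overlap partners or markers. Positions of 91.3% of symbols (25382 of 27788) were matched to GENCODE release 44, 787 of them by Entrez ID. Promoter windows are from RefSeq. All libraries held at least 17814142 counts, and intervals cover counting error only.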

Additional observations from a re-analysis of the deposited data

Results flagged for a closer look

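For these genes, the KO against WT change differed between the lines by a test of the difference itself. Excepted are GAS6-AS2 and the genes given as fitted values only. The test was the edgeR interaction in the fit of 12 libraries, adjusted over 15613 genes, 16.9% of which were called. For such a call the mean FPKM of either line could meet the threshold. Values are log2 differences, U-87 MG minus HCT116. The 5 members are left out, since the U-87 MG comparison chose them. Groups of 3 libraries were not tested for outlying samples, but counts of library pairs were compared by chi-square per degree of freedom. Pairs with library 3 gave 5.56 and 5.4 in HCT116 KO, against 1.8 between libraries 1 and 2. They gave 3.63 and 3.46 against 1.48 in HCT116 WT, and 8.21 and 9.31 against 2.38 in U-87 MG WT. In U-87 MG KO pairs with library 1 gave 2.67 and 2.96, against 1.61.

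Beside GAS6 on chromosome 13, the difference was -1.96 for RASA3 (edgeR adjusted p = 4.09e-18), -1.29 for DCUN1D2, -0.88 for TMCO3 and -0.85 for TFDP1. GAS6-AS1 at -2.58 is given as a fitted value only. It had 7 to 27 counts per library in U-87 MG, and its reads may not have been told apart from those of GAS6. LINC00565 at -5.18 and ADPRHL1 at -0.91 are given as fitted values only, since each met the FPKM threshold through 1 line. LINC00565 had 0.242 FPKM in HCT116 KO and 0.0635 FPKM in HCT116 WT cells. ADPRHL1 had 0.28 FPKM in U-87 MG KO and 0.59 FPKM in U-87 MG WT cells, a mean under the threshold. The difference was 1.17 for UPF3A, 0.94 for GRTP1 and 0.63 for CHAMP1. GAS6-AS2, with 0 counts in U-87 MG KO libraries, has no interpretable fitted value. Its adjusted p from edgeR was 1.28e-10, and no test is read from it. GAS6-AS2 starts inside the GAS6 window, and the U-87 MG values of GAS6 chose the set. GAS6-AS1 has no FPKM value.

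Among pathway genes, positive differences were found for MFGE8 at 1.0 and AIFM2 at 0.88. ATP8A1 at 1.27 is given as a fitted value only. It met the FPKM threshold through U-87 MG, and had 0.16 FPKM in KO and 0.153 FPKM in WT cells of HCT116. Negative differences were found for SOCS1 at -1.96, TEAD3 at -1.53, JUN at -1.19, GAS5 at -1.01, LGALS3 at -0.93, GAS8 at -0.81, GAS2L1 at -0.74, LRP1 at -0.73 and TWIST1 at -0.66. BGLAP at 3.03 and SNAI2 at -3.09 are also given as fitted values only, and no difference is read from them. BGLAP and SNAI2 entered the fit through U-87 MG and were near 0 in HCT116. There BGLAP had 0.0574 FPKM in KO and 0.268 FPKM in WT cells, and SNAI2 had 0.156 FPKM in KO and 0.048 FPKM in WT cells.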

How the results depend on the processing

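PROS1, AXL and TYRO3 kept their direction in both lines under every alternative run. In HCT116 GAS6, which did not pass the test, had a log2 fold change of 0.0 with library totals only, 0.03 without KO library 2 and 0.02 without WT library 3 (-0.05 to 0.03 over all libraries left out in turn). In U-87 MG it was -3.48 with limma on log2(FPKM + 1) and -6.1 on log2(FPKM + 0.1), where the pseudocount limits the change of a gene near 0. MERTK in HCT116 was under the fold threshold with limma, at 0.42 on log2(FPKM + 1) and 0.54 on log2(FPKM + 0.1). HCT116 calls numbered 1070 with limma on log2(FPKM + 1), of which 53.1% were higher, against 1672 and 65.8% with edgeR, and the cause was not tested.

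Leaving out each library in turn gave log2 fold changes of 0.77 to 1.0 for PROS1, -0.54 to -0.5 for AXL, -0.24 to -0.09 for TYRO3 and 0.6 to 0.71 for MERTK in HCT116. In U-87 MG the ranges were -7.71 to -7.32 for GAS6, 0.63 to 0.7 for PROS1, -0.92 to -0.89 for AXL and -1.14 to -1.07 for TYRO3. Calls ranged over 1671 to 1753 in HCT116, 2209 to 2282 in U-87 MG, 7954 to 8043 between WT lines and 2574 to 2698 for the difference between lines, and pathway calls over 11 to 14 and 13 to 16.

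Over 15613 genes, deviations of same-numbered KO and WT libraries correlated weakly, at 0.00736 to 0.0948 in HCT116 and -0.0371 to 0.0025 in U-87 MG. Such a summary over all genes cannot tell whether some genes were paired by replicate number. With the number as a replicate block, 1680 genes were called in HCT116 and 2221 in U-87 MG, and the log2 fold changes were 0.89 for PROS1 in HCT116 and -1.09 for TYRO3 in U-87 MG. In HCT116 the edgeR adjusted p with that block was 2.31e-28 for PROS1 and 1.28e-48 for AXL, against 3.76e-07 and 1.36e-08 without it. TYRO3 in HCT116, at an edgeR adjusted p of 0.0595, passed 0.05 with that block (0.00158), with no filter on low counts (0.0211) and without KO library 3 (0.000384), and ranged up to 0.274 without KO library 2, with a fold under 1.5 under every alternative run. Depth limits MERTK in U-87 MG, with 5 to 9 counts per library.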

Other observations

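Of the other receptor tyrosine kinases, 14 of 30 tested were called in U-87 MG, 8 higher and 6 lower, beside 16.2% of all genes, and 7 of 34 in HCT116, 6 higher and 1 lower, beside 11.9%. Their median log2 fold changes were -0.03 in U-87 MG and 0.2 in HCT116. MET, the most abundant in U-87 MG, had 104 ± 2.85 FPKM in KO and 91.7 ± 1.06 FPKM in WT cells (SD, n = 3 each), so AXL stood below MET by a wider margin in KO cells.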
